A study of Mus musculus with 4 samples.

Results

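The genes described here encode the ligands and receptors of hepatocyte growth factor (HGF) and epidermal growth factor (EGF) signalling. They are Hgf and its receptor gene Met, the EGF family ligand genes Hbegf, Areg, Ereg, Tgfa and Nrg1, and the receptor genes Egfr, Erbb2 and Erbb3. Each was represented by every probe set annotated to its symbol alone, which gave 22 probe sets for 9 of the 10 listed genes, out of 45037 probe sets and 18193 genes in all. Areg was not analysed here. The genes were chosen with their values in this comparison known, for a lower Hgf and a higher Hbegf signal after treatment, so their differences are given as a description with no test.

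The cells were C3H10T1/2, a mouse line that the labels call mesenchymal stem cells. One group of 2 cultures received recombinant human bone morphogenetic protein 3 (BMP3), a secreted protein of the TGF-beta superfamily, at 100 ng/ml for 6 hours. The other 2 cultures were left without it, and both groups were otherwise under the same standard culture. Biotin-labelled RNA of each culture was hybridised to 1 Affymetrix 3' expression array, giving 4 arrays. The labels call the arrays biological replicates but do not say whether cultures were separate beyond that, so every spread below is that between these arrays. The design asks which transcripts differ after BMP3.

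HGF is secreted by mesenchymal cells as an inactive single chain, is cut by serine proteases into its active form, and binds the receptor tyrosine kinase MET on neighbouring cells. EGF family ligands are made as membrane-anchored precursors, and ADAM proteases release them. They bind EGFR and its relatives, which work as dimers, and both receptor systems feed the RAS and ERK kinase cascade, whose response genes include phosphatases and other proteins that damp it.

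RefSeq's promoter table (GRCm38.p6) held windows for 6 of the 10 genes, namely Hgf, Met, Areg, Egfr, Erbb2 and Tgfa. The 250 bases upstream of the annotated start are shown for Hgf and for Egfr. Of the listed genes, these are the ligand and the receptor gene at least 1.5-fold lower in BMP3 arrays by the brightest probe set. Hgf is at chr5:16553245-16553494 and Egfr at chr11:16751953-16752202, both on the plus strand. Capitals mark CAGAC, the short SMAD box, and GGGCGG, the GC box, on either strand, and the matches do not overlap.
Hgf promoter: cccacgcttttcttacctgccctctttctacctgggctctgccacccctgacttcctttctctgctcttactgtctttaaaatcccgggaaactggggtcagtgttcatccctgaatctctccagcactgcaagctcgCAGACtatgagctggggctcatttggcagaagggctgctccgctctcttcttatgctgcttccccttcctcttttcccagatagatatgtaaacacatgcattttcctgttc
Egfr promoter: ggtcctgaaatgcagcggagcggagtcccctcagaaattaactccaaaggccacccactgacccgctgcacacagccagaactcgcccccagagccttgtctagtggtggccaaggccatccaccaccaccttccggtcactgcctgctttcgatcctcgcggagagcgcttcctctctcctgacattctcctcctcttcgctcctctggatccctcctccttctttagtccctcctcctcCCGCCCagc

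The Hgf window holds 1 SMAD box, at position -112 counted from the start, and no GC box, while the Egfr window holds 1 GC box, at position -9, and no SMAD box. A second annotated Hgf start lies 406 bases downstream, and its window also holds 1 SMAD box and no GC box. Of all 32851 promoter windows of 250 bases, 42.2% held CAGAC and 32.7% held GGGCGG, so these letters are common. The AP-1 motif TGANTCA, found in 6.75% of windows, and the GC-rich SMAD element GGCGCC, found in 9.59%, were each in the Met window and in no window of Hgf, Egfr, Erbb2, Areg or Tgfa. A match describes the letters of the window and is not a binding site.

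Values are taken to be log2 intensities, and one of 6 or more is called bright here. Of the 22 probe sets, 12 of 7 genes averaged that level over the 4 arrays, and the remaining 10 were dim, 8 of them under the median of every array. Hgf had 3 bright probe sets, Hbegf 2, Egfr 3 of 7, Met 1 of 2, and Ereg, Erbb2 and Nrg1 1 each. Both Erbb3 probe sets and the 3 of Tgfa were dim. Intensities of different probe sets are not comparable as levels, so each gene is compared with itself across arrays.

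**Figure D1:**
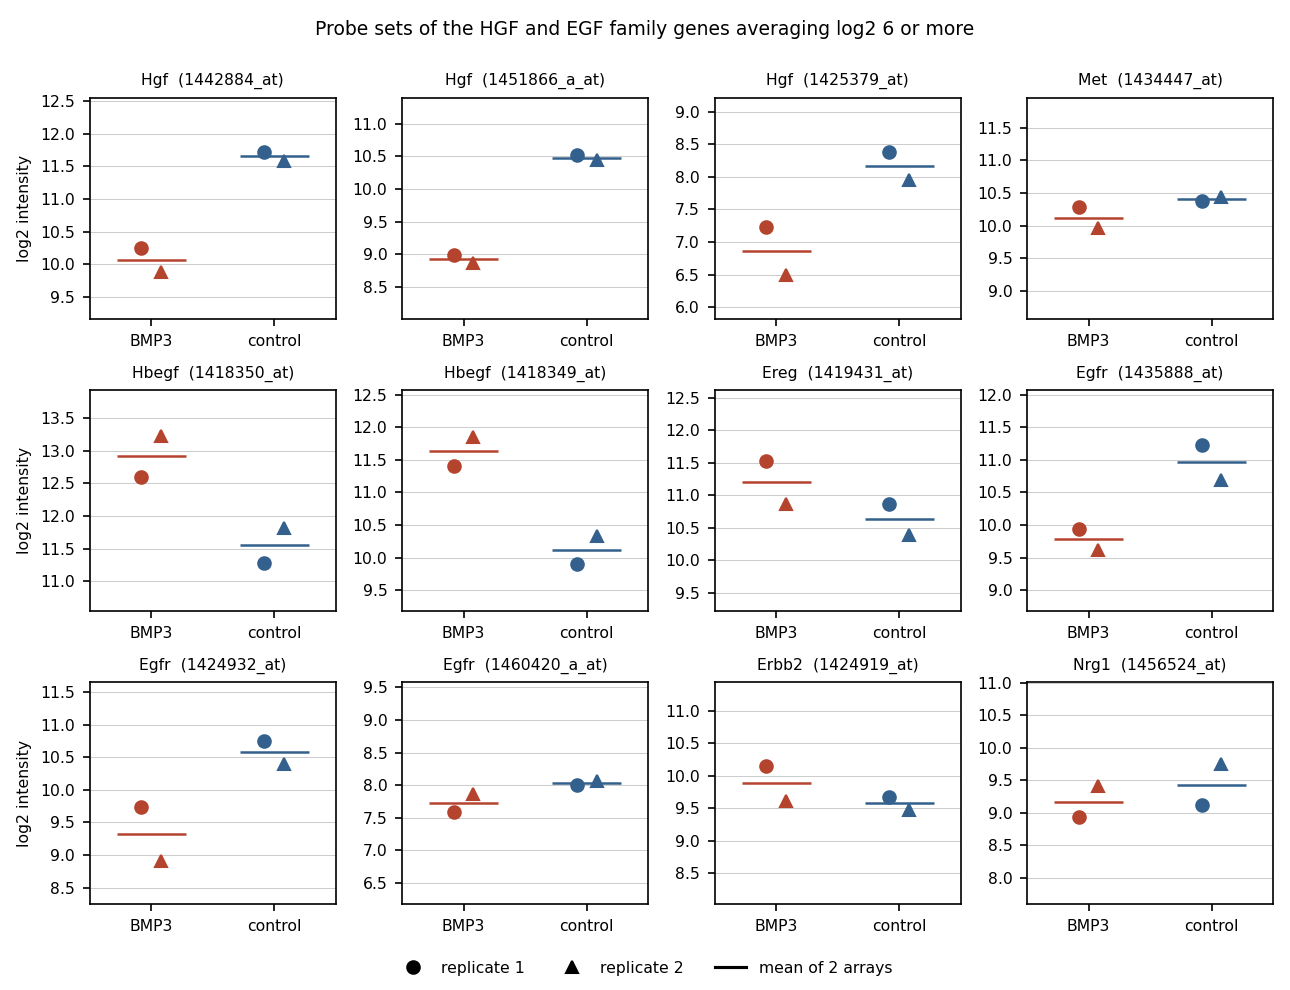
Log2 intensity of the 12 bright probe sets in each array, with BMP3 at left and control at right in each panel, circles for replicate 1, triangles for replicate 2 and a line at the mean of 2 arrays. Each vertical axis spans the same number of log2 units, centred on the probe set. All 3 Hgf probe sets are lower in BMP3 arrays with no overlap, both Hbegf probe sets are higher with no overlap, and Ereg, Erbb2 and Nrg1 overlap between groups.

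Hgf was the listed ligand gene at least 1.5-fold lower in BMP3 arrays without overlap. Its brightest probe set (1442884_at) stood at 10.25 and 9.87 in BMP3 replicates 1 and 2, against 11.72 and 11.58 in control replicates 1 and 2. Both BMP3 arrays lay below both control arrays, and the gap between the groups, 1.33 on the log2 scale, exceeded the gap between replicates, which was 0.38 in BMP3 arrays and 0.14 in control arrays. The log2 difference, BMP3 minus control, was -1.59 with a limma standard error of 0.16, a 3.01-fold lower mean intensity. Differences below are given in the same direction and with the same error.

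The other Hgf probe sets had the same direction. Probe set 1451866_a_at stood at 8.99 and 8.86 in BMP3 arrays, against 10.52 and 10.44 in control arrays, a difference of -1.56 (SE 0.07). Probe set 1425379_at stood at 7.24 and 6.49 in BMP3 arrays, against 8.38 and 7.96 in control arrays, a difference of -1.30 (SE 0.34). Its groups did not overlap either, but the gap of 0.72 between them was about that between its BMP3 replicates, 0.74. The 3 differences therefore ran from -1.59 to -1.30. With any 1 array left out, the difference of the brightest probe set ran from -1.78 to -1.40.

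Met, which encodes the HGF receptor, differed much less than its ligand. Its bright probe set (1434447_at) stood at 10.29 and 9.96 in BMP3 arrays, against 10.38 and 10.44 in control arrays. BMP3 arrays were lower, but the gap between the groups, 0.10, was smaller than that between the BMP3 replicates, 0.33. The difference was -0.29 (SE 0.14). It ran from -0.46 without BMP3 replicate 1 to -0.13 without BMP3 replicate 2. The other Met probe set (1422990_at) was dim, at 1.87 and 1.87 in BMP3 arrays and 1.85 and 1.89 in control arrays.

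Hbegf, which encodes heparin-binding EGF-like growth factor, a ligand of EGFR and ERBB4, was the listed ligand gene at least 1.5-fold higher without overlap. Its brightest probe set (1418350_at) stood at 12.61 and 13.23 in BMP3 arrays, against 11.29 and 11.82 in control arrays. The second probe set (1418349_at) stood at 11.40 and 11.85 in BMP3 arrays, against 9.90 and 10.33 in control arrays. In both probe sets BMP3 arrays lay above control arrays, by gaps of 0.79 and 1.07, and replicate 2 was the higher array of each group.

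The Hbegf differences were 1.36 (SE 0.33), a 2.57-fold higher mean, and 1.51 (SE 0.25), a 2.86-fold higher mean. Its replicates differed by 0.62 in BMP3 arrays and 0.54 in control arrays at the brightest probe set, more than those of Hgf. With any 1 array left out, that difference ran from 1.05 to 1.68.

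Ereg encodes epiregulin, another ligand of EGFR and ERBB4, whose gene neighbours Areg on chromosome 5. It stood at 11.52 and 10.87 in BMP3 arrays, against 10.87 and 10.40 in control arrays (1419431_at). BMP3 replicate 2 and control replicate 1 were level, so the groups were not separated, and the difference of 0.56 (SE 0.32) was smaller than the 0.65 between the BMP3 replicates. It ran from 0.24 to 0.89 when single arrays were left out.

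Nrg1, which encodes neuregulin 1, a ligand of ERBB3 and ERBB4, stood at 8.94 and 9.40 in BMP3 arrays, against 9.12 and 9.75 in control arrays (1456524_at). The groups overlapped, and the difference of -0.26 (SE 0.31) turned to 0.05 without control replicate 2. Tgfa, which encodes transforming growth factor alpha, a ligand of EGFR, was dim in all 3 probe sets. Its brightest (1421943_at) stood at 4.89 and 4.97 in BMP3 arrays, against 4.01 and 5.17 in control arrays, so the spread between control replicates spanned both BMP3 values.

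Egfr, the receptor gene for HB-EGF, epiregulin, amphiregulin and TGF-alpha, had lower signal in BMP3 arrays, opposite to its ligand gene Hbegf. Its brightest probe set (1435888_at) stood at 9.94 and 9.62 in BMP3 arrays, against 11.23 and 10.70 in control arrays. Probe set 1424932_at stood at 9.74 and 8.91 in BMP3 arrays, against 10.75 and 10.39 in control arrays. The groups did not overlap in either, with gaps of 0.75 and 0.66, and the BMP3 replicates of the second differed by more than its gap, 0.83.

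These Egfr differences were -1.18 (SE 0.25), a 2.27-fold lower mean, and -1.25 (SE 0.36). The third bright probe set (1460420_a_at) stood at 7.58 and 7.86 in BMP3 arrays, against 7.996 and 8.066 in control arrays. It was also lower without overlap, but its difference was only -0.31 (SE 0.12), so the bright Egfr probe sets disagreed in size. The 4 dim Egfr probe sets had differences of -0.02 to 0.01. With the mean of all 7 probe sets taken as the Egfr value the difference was -0.39, and with single arrays left out that of the brightest probe set ran from -1.45 to -0.91.

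Erbb2, which encodes a receptor with no known ligand of its own that pairs with the other receptors, did not follow Egfr. It stood at 10.16 and 9.62 in BMP3 arrays, against 9.68 and 9.47 in control arrays (1424919_at), and the groups overlapped. Its difference of 0.31 (SE 0.23) was smaller than the 0.54 between the BMP3 replicates and was 0.04 without BMP3 replicate 1. Erbb3, which encodes the neuregulin receptor with a weak kinase, was dim, at 3.39 and 3.42 in BMP3 arrays and 3.23 and 3.48 in control arrays for its brighter probe set (1434606_at).

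**Figure D2:**
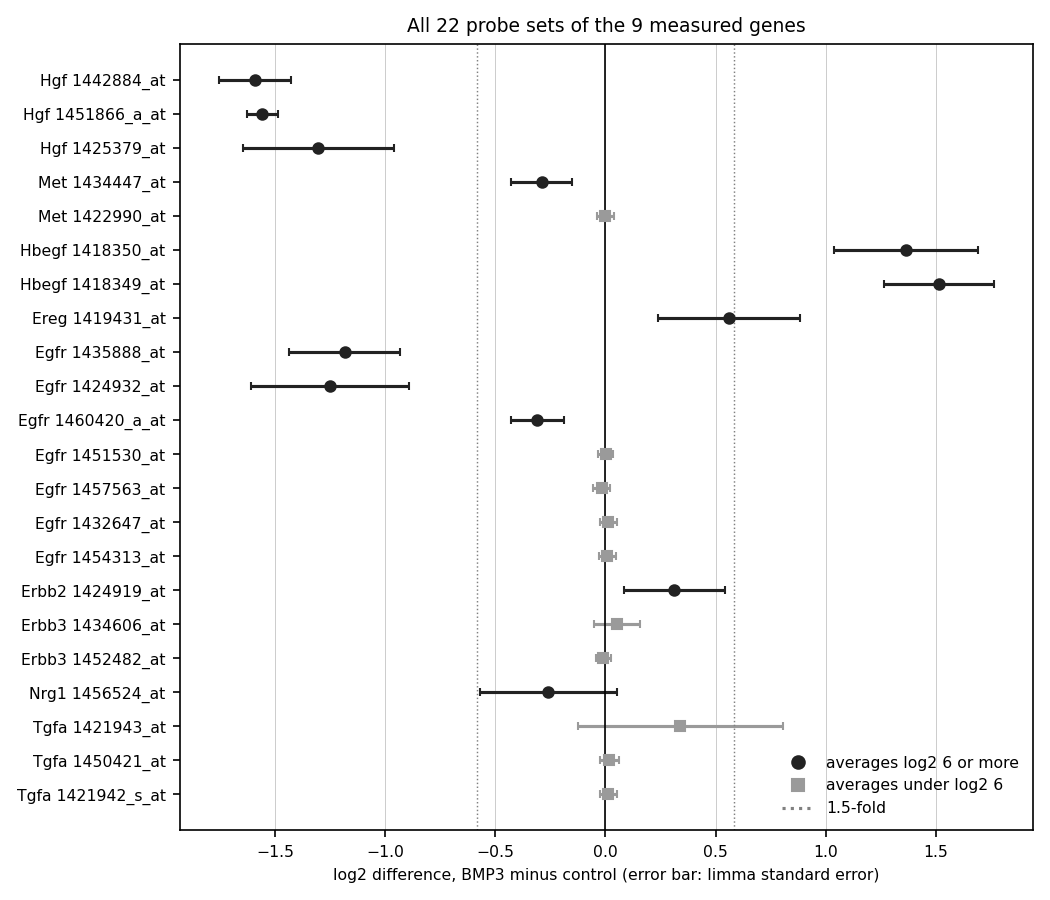
Log2 difference, BMP3 minus control, for all 22 probe sets of the 9 measured genes, with the limma standard error as the bar, black circles for bright and grey squares for dim probe sets, and dotted lines at 1.5-fold. The 3 Hgf probe sets and 2 of the Egfr probe sets lie beyond the line on the lower side, both Hbegf probe sets beyond it on the higher side, and Ereg falls just inside it.

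At a fold of at least 1.5 with no overlap between groups, 2 of the 22 probe sets were higher in BMP3 arrays, both of Hbegf, and 5 were lower, 3 of Hgf and 2 of Egfr. Over all 45037 probe sets the same rule held for 1.44% in the higher and 3.60% in the lower direction. Per gene, by the brightest probe set, 1 of 9 was higher and 2 were lower, against 2.07% and 2.95% of 18193 genes. Nothing is read from these shares, since the genes were chosen from this contrast. Nearest to the threshold among those past it were the 2 Egfr probe sets, 2.27-fold and 2.38-fold lower, well beyond 1.5-fold, and nearest among the others was Ereg, 1.48-fold higher and overlapping. In limma, 0 probe sets of the whole table passed an adjusted p of 0.05 (0%, smallest adjusted p = 0.213), while 3779 had an unadjusted p under 0.05. An ordinary linear model called 0 as well, and limma with a trended and robust prior called 1.

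The culture carried mesenchymal markers and few of other cell types. All 8 mesenchymal markers were bright, Vim and Col1a1 among them. The log2 of their summed intensities was 18.29 and 18.19 in BMP3 arrays and 18.33 and 18.28 in control arrays. Such a sum rests mostly on its brightest genes. Among the single markers, Thy1 differed by 0.73 (SE 0.10) and Pdgfra by -0.73 (SE 0.52). Of 7 epithelial markers only Epcam was bright, and Cdh1, Krt8 and Krt18 were dim. The log2 of the summed intensities of the 7 was 9.56 to 9.70 in BMP3 arrays and 9.46 to 9.64 in control arrays. None of 6 leukocyte and 5 endothelial markers was bright. Control probe sets differed between the groups too. 18S ribosomal RNA stood at 8.99 and 9.90 in BMP3 arrays, against 11.41 and 10.50 in control arrays, and the Dap poly-A spike-in, which is added RNA, at 8.98 and 8.79 in BMP3 arrays, against 10.18 and 9.66 in control arrays. The 18S difference was -1.51, and all 4 poly-A spike-ins were lower in BMP3 arrays, with differences of -1.03 for Dap, -1.04 for Phe, -0.70 for Lys and -0.60 for Thr. These differences have the direction of those of Hgf and Egfr and the opposite direction to that of Hbegf. Their part in the results was not tested. The hybridisation control Cre differed by -0.07.

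The other genes of the pathway were taken from 9 lists of 84 genes, of which 79 were measured and 60 were bright. The lists were chosen with earlier results of these data known. None of the 79 passed limma's adjusted p of 0.05, and 12 had an unadjusted p under 0.05. In the same limma fit, 3779 of all 45037 probe sets had an unadjusted p under 0.05. Genes past that p alone were not counted over the whole series, nor among bright genes. The lists also held more bright genes, 60 of 79 against 9185 of all 18193, so nothing is read from the 12. When 1.5-fold was asked for as well as that p, 3 of the 79 were higher (3.80%) and 2 lower (2.53%) in BMP3 arrays. By that rule 1.18% and 1.65% of all 18193 genes were higher and lower. The 5 were Cd44, Dusp4 and Etv4, with higher values, and Fos and Gab1, with lower. The median difference of the 79 was -0.0019, against -0.01 for all genes.

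**Figure D3:**
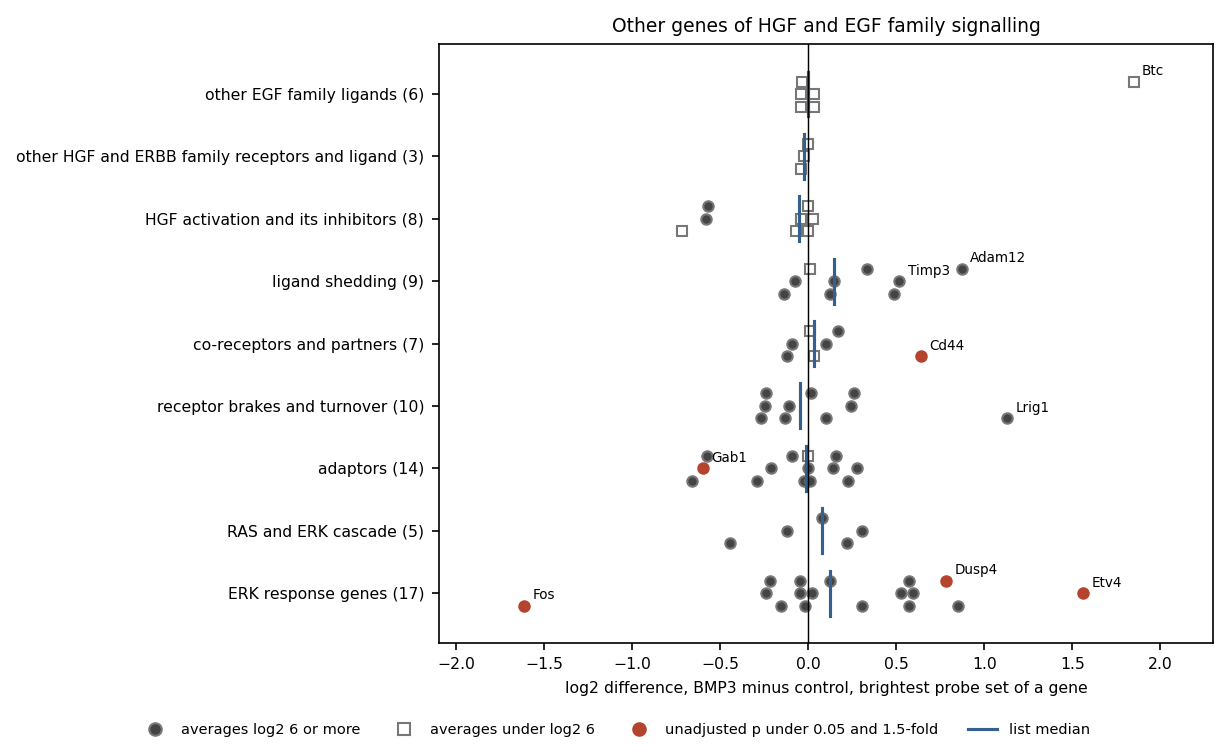
Log2 difference, BMP3 minus control, of the brightest probe set of each of 79 pathway genes, by list with the number measured in brackets. Filled circles are bright genes, open squares dim ones, red marks genes past 1.5-fold whose unadjusted p is under 0.05, and blue bars are list medians. Fos lies at -1.62 and Etv4 at 1.56 within the ERK response genes, while most other genes lie within 0.5 of 0.

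No other ligand gene took a bright level in both BMP3 arrays. All 6 other EGF family ligands, namely Egf, Btc, Epgn, Nrg2, Nrg3 and Nrg4, averaged under 6. Btc, which encodes betacellulin, stood at 6.58 in BMP3 replicate 1 and 2.99 in BMP3 replicate 2, against 2.92 and 2.96 in control arrays, so its higher mean came from 1 array (limma adjusted p = 0.884). Erbb4, the remaining receptor gene of the family, was dim at 3.50 and 3.34 in BMP3 arrays and 3.39 and 3.54 in control arrays. Mst1r, which encodes the MET relative RON, and its ligand gene Mst1 were dim too.

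Among genes that activate HGF or inhibit its activators, 7 of 8 had a lower mean in BMP3 arrays, but only Plau and Plat averaged 6 or more. Plau, the urokinase gene, stood at 5.33 and 6.10 in BMP3 arrays, against 6.73 and 5.86 in control arrays, and its groups overlapped (difference -0.58, SE 0.46, limma adjusted p = 0.884, -1.02 to -0.15 with single arrays left out). Hgfac, which encodes HGF activator, and the inhibitor genes Spint1 and Spint2 were dim. The Spint2 mean was lower through control replicate 1, at 3.51, with the other 3 arrays at 2.16 to 2.26.

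Among 9 genes of ligand shedding, 7 had a higher mean in BMP3 arrays and 8 were bright. The list median was 0.15, against -0.01 for all genes. The share of all genes with a higher or a lower mean was not counted. Nothing is therefore read from such counts, here or in the other lists. Adam17, which encodes the main protease that releases EGFR ligands, overlapped between groups with a difference of 0.15 (SE 0.27). Rhbdf1, an iRhom that guides ADAM17 to the cell surface, stood at 13.32 and 13.07 in BMP3 arrays, against 12.67 and 12.76 in control arrays (difference 0.49, SE 0.11, limma adjusted p = 0.442). Timp3, an inhibitor of ADAM17, was also higher in both BMP3 arrays at its brightest probe set, with 0.52 (SE 0.15, limma adjusted p = 0.554). Its other probe sets, also bright, had 0.65 (SE 0.26) without overlap, and 0.41 (SE 0.46) and 0.68 (SE 0.60) with overlap. Adam12 stood at 8.67 and 9.75 in BMP3 arrays, against 8.23 and 8.45 in control arrays, and its difference of 0.87 ran from 0.33 to 1.41 with single arrays left out.

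Among 7 co-receptors and partners, Cd44, whose variant forms present HGF to MET and HB-EGF to its receptors, stood at 13.49 and 13.22 in BMP3 arrays, against 12.91 and 12.52 in control arrays. Its difference of 0.64 (SE 0.19) did not pass (limma adjusted p = 0.563), and its other bright probe sets had 0.71 and 0.51. Cd9, a tetraspanin that associates with the HB-EGF precursor, overlapped between groups with 0.17 (SE 0.26), and its direction turned without BMP3 replicate 1 (-0.05) and without control replicate 2 (-0.08).

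The 10 receptor brakes and turnover genes were all bright. By the brightest probe set they split evenly, with 5 higher and 5 lower means and a median of -0.05. That split depends on the probe set. Rnf41 had 0.02 (SE 0.04) with overlap, but -0.45 (SE 0.10) without overlap at its other bright probe set. Cblb had -0.24 (SE 0.35) with overlap, and at its other bright probe sets -0.95 (SE 0.25) without and 0.13 (SE 0.19) with overlap. Errfi1, which encodes the EGFR inhibitor MIG6, stood at 14.07 and 12.93 in BMP3 arrays, against 13.59 and 12.90 in control arrays. Its groups overlapped, and replicate 1 was the higher array of each group. The Errfi1 difference was 0.26 (SE 0.53), but -0.37 (SE 0.43) at its other bright probe set. Lrig1, another negative regulator of ERBB receptors, had the widest difference of the list, 1.13 (SE 0.77, limma adjusted p = 0.873), and its groups overlapped, at 10.31 and 11.57 in BMP3 arrays against 9.07 and 10.55 in control arrays. Replicate 2 was the higher array of each group for Lrig1, and its other bright probe set had 1.04 (SE 0.67), also with overlap. The difference of the brightest Lrig1 probe set ran from 0.39 to 1.87 with single arrays left out. Cbl, a ubiquitin ligase that directs EGFR and MET to degradation, had -0.13 (SE 0.11).

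Among 14 adaptors, 9 had a lower mean and 13 were bright. Sos2, an exchange factor that activates RAS, stood at 10.34 and 10.42 in BMP3 arrays, against 10.96 and 10.95 in control arrays, a difference of -0.58 (SE 0.05, limma adjusted p = 0.224). Gab1, the docking protein of MET, stood at 9.67 and 9.54 in BMP3 arrays, against 10.02 and 10.38 in control arrays, with -0.60 (SE 0.16, limma adjusted p = 0.496) and -0.29 at its other bright probe set. The groups did not overlap for either gene, as they did not for 37.3% of all genes, and neither passed the test. Stat3, named after its values were seen, had -0.29 (SE 0.20) with overlap at its brightest probe set. Its other bright probe sets had -0.54 (SE 0.21) and -1.19 (SE 0.30), both without overlap. Of the 10 genes of the RAS and ERK cascade, 5 were measured. Map2k2, which encodes MEK2, had 0.31 (SE 0.075, limma adjusted p = 0.467) and Araf -0.44 (SE 0.15, limma adjusted p = 0.629).

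The 17 ERK response genes were all bright, with 10 higher and 7 lower means and a median of 0.12, against 0.02 for all bright genes. The immediate early gene Fos stood at 9.75 and 9.51 in BMP3 arrays, against 11.26 and 11.23 in control arrays, a difference of -1.62 (SE 0.10, limma adjusted p = 0.213). The cyclin D1 gene Ccnd1 had 0.53 (SE 0.11, limma adjusted p = 0.404), and 2 phosphatase genes that act on MAP kinases, Dusp5 and Dusp4, had 0.57 (SE 0.07, limma adjusted p = 0.297) and 0.78 (SE 0.20, limma adjusted p = 0.479). The brightest Ccnd1 probe set was 1.44-fold higher, and its other probe sets, also bright, had 0.76 and 0.72, past 1.5-fold without overlap. Fos, Ccnd1, Dusp5 and Dusp4 are the 4 genes of smallest p in the list by the brightest probe set. Over the whole list the groups did not overlap for 7 of 17 genes (41.2%), 6 higher and 1 lower in BMP3 arrays, against 37.3% of all genes. That share was not counted by direction, so nothing is read from the split. It also covers dim genes, since only 9185 of all 18193 genes were bright.

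Other members of the list, named after their values were seen, differed in size and direction. Etv4, a transcription factor gene, stood at 7.71 and 6.66 in BMP3 arrays, against 5.86 and 5.39 in control arrays (difference 1.56, SE 0.46, limma adjusted p = 0.547). Plaur, the urokinase receptor gene, had 0.85 (SE 0.29, limma adjusted p = 0.624) without overlap. The ERK phosphatase gene Dusp6 had 0.59 (SE 0.37, limma adjusted p = 0.858). It stood at 14.24 and 13.34 in BMP3 arrays, against 13.29 and 13.10 in control arrays. The Dusp6 groups did not overlap, but BMP3 replicate 2 lay closer to control replicate 1 than to BMP3 replicate 1. Fosl1 and Spred1 had 0.57 (SE 0.37) and 0.30 (SE 0.32) with overlap. The other bright Fosl1 probe set had -0.08 (SE 0.34), and those of Spred1 ran from -0.30 to 0.49. The Etv4 relative Etv5 had 0.02 (SE 0.37) with overlap, but -0.55 (SE 0.36) without overlap at its other bright probe set. The feedback inhibitor genes Spry2 and Spry4 had -0.05 (SE 0.28) and -0.22 (SE 0.15). Egr1 stood at 14.60 and 13.58 in BMP3 arrays, against 14.56 and 14.10 in control arrays, so its groups overlapped.

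Likeness to Hgf and Hbegf was measured as the Euclidean distance between log2 values over the 4 arrays, each centred on its own mean, among 9184 other bright genes. The 5 genes nearest to Hgf were Emb (0.124), Fos (0.130), Id2 (0.262), Hykk (0.263) and Osmr (0.279), against a median distance of 1.65. Emb, which encodes the cell adhesion protein embigin, stood at 8.23 and 7.68 in BMP3 arrays, against 9.64 and 9.47 in control arrays. Egfr came 29th, at a distance of 0.495, and Met 1264th, at 1.31. The 5 genes nearest to Hbegf were Cgref1 (0.121), Bcat1 (0.311), Ccl2 (0.316), Dph2 (0.324) and Flt1 (0.325), against a median of 1.51. Cgref1 stood at 9.28 and 9.87 in BMP3 arrays, against 7.84 and 8.34 in control arrays, and Ereg came 3234th, at a distance of 1.40. The distance is a description over 4 arrays, and genes that differ by about the same amount between the groups are near each other by its construction.

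**Figure D4:**
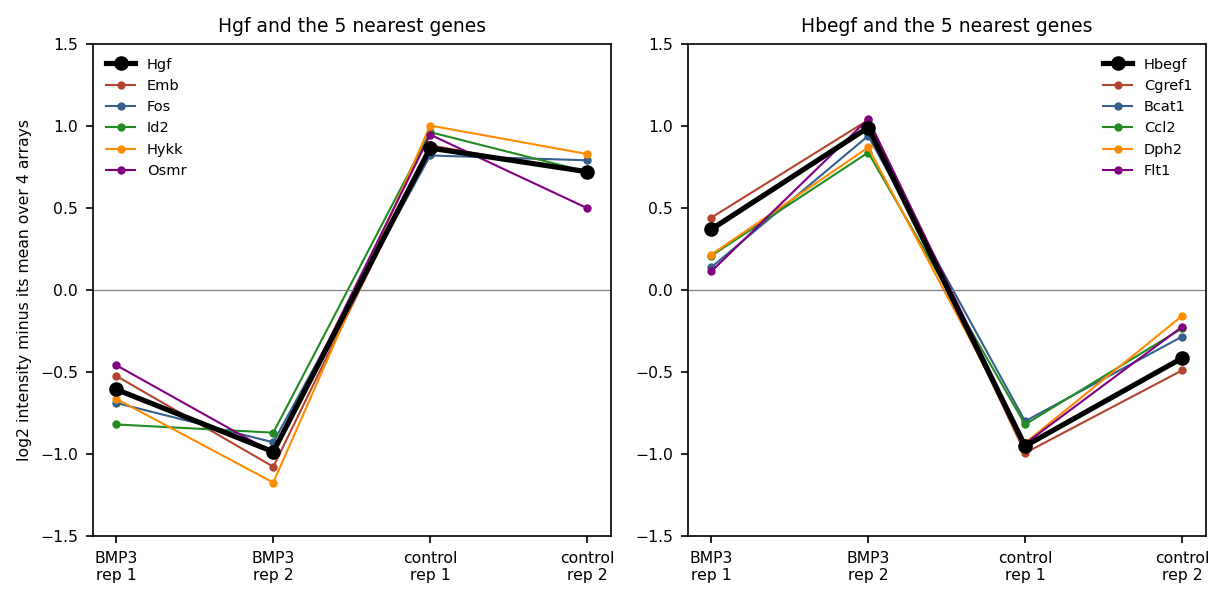
Log2 intensity minus its mean over the 4 arrays for Hgf (left) and Hbegf (right), in black, with the 5 genes of nearest pattern in colour. Lines only join the 4 arrays. Hgf and its 5 nearest genes lie below 0 in both BMP3 arrays, and Hbegf and its 5 nearest genes above 0.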

How the data were processed

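Biotin-labelled cRNA, made with a 3' IVT kit per the labels' protocols, was read on Affymetrix arrays. The authors deposited a table of log2 values, 1 for each probe set on each array. That these are log2 values is an inference from their range, and each fold would change with another base. The submitters' processing notes name Partek only, so the background correction, normalization and summarisation are unknown. Values were used as deposited, without 64 control probe sets. GEO's platform annotation paired 34945 of the 45037 remaining probe sets with a single gene symbol and 932 with several, which named no gene here. The other 9160 had no listed gene. A gene's value was that of its probe set with the highest mean.

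Groups came from sample titles. Differences were fitted with limma 3.58.1 in R 4.3.3 (lmFit, eBayes, two-sided, Benjamini-Hochberg adjustment over all probe sets, threshold 0.05), with no replicate term, and the fit was tested on simulated data. The number of arrays, 2 per group, limits the precision. The members, lists and markers were chosen with earlier results of these data known. From each list, the text could name the 4 genes of smallest unadjusted p, and any other gene there was chosen after its values were seen. The alternatives were a replicate block, each array left out, 3 normalizations, a filter on dim probe sets, other variance models, an offset of 16 and gene means. Not all list genes are analysed here.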

Additional observations from a re-analysis of the deposited data

How the results depend on the processing

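The differences of Hgf (-1.60 to -1.48) and Hbegf (1.33 to 1.44) kept their direction under every normalization, filter, offset, variance model and the mean of probe sets, as they did with single arrays left out. Of the 22 probe sets, 5 were lower and 2 or 3 higher past 1.5-fold without overlap under each of these settings except gene means, where probe sets are not counted. That count was added after the data were seen. With the replicate number as a block, 683 probe sets were higher and 1481 lower at an unadjusted p under 0.05 and 1.5-fold, against 364 and 901 without it, and 6 pathway genes were higher against 3. Deviations of replicate 1 from the group mean correlated at 0.596 between groups over 17152 bright probe sets, but with 2 numbers that do not mark a known batch the pairing was not used. Over the same probe sets the BMP3 arrays correlated at 0.9785 with each other and the control arrays at 0.9877. Each BMP3 array correlated at 0.9805 with the control array of the same number, so the BMP3 arrays were no more alike than those pairs. With single arrays left out, these counts ran from 329 to 870 and from 742 to 1407, the pathway count from 2 to 6, and those of 1.5-fold without overlap from 836 to 1510 and from 1589 to 2674, against 648 and 1622. The ordinary linear model gave 171 and 418, with 0 pathway genes higher and 1 lower against 2. Pathway genes numbered 1 higher with the offset, and 1 lower with median centring and with gene means. At 2-fold the counts were 82 and 344, and 136 and 524 without overlap. At an adjusted p under 0.25, 254 probe sets were counted, and the trended and robust prior gave 1 at 0.05. The cause of these moves was not tested, other than the stricter or looser thresholds.

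With single arrays left out, direction turned for Erbb3 (-0.0733 to 0.17), Tgfa (-0.241 to 0.92), Nrg1 (-0.57 to 0.0544), Cd9 (-0.077 to 0.41), Plxnb1 (-0.0322 to 0.0991), Erbb4 (-0.12 to 0.0352), Mst1r (-0.0549 to 0.0027), Mst1 (-0.0231 to 0.0194) and Nrp1 (-0.25 to 0.0622). Direction also turned for Mst1 under quantile normalization (0.0047), median centring (0.037) and cyclic loess (0.0089), for Egf (0.0034) and Mst1r (0.013) under median centring, and for Nrg4 (-0.013) and Nrp1 (0.23) with gene means. Erbb3, Tgfa and the dim genes among these lie near the lower end of the signal, where a difference says little.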
